A study of Homo sapiens with 2 samples.

Results

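The 39 genes described here encode the enzymes of glycolysis, the transporters that bring glucose in and carry lactate out, the kinases that set the flow through the pathway, and the hypoxia-inducible factor (HIF) system with its targets. They were chosen by a list of gene symbols, and all 39 were found among 19198 named genes. Sequencing of polyA RNA measured them in A549-NICD1 and in A549-Vector cells, with 1 library from each. A549 is an established human lung adenocarcinoma line. A549-NICD1 cells overexpressed NICD1, the intracellular domain of the NOTCH1 receptor, which enters the nucleus and activates transcription together with RBPJ, and A549-Vector cells carried the empty vector. The study's methods describe lentiviral vectors, infection and antibiotic selection for its stable lines, and do not say whether the sequenced cells were 1 clone. The study profiled these cells to look for genes through which NICD1 acts on malignant behaviour.

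Glycolysis splits glucose into pyruvate in the cytosol, and lactate dehydrogenase turns pyruvate into lactate when it is not burned in mitochondria. Under low oxygen, the HIF alpha subunits HIF1A and EPAS1 escape hydroxylation by the EGLN enzymes and breakdown through VHL, and then switch on glucose transporters, glycolytic enzymes and genes of hypoxic adaptation. Many tumour cells keep glycolysis high even with oxygen at hand.

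Levels are given as FPKM, reads divided by gene length and by the depth of the library, which allows levels of different genes to be set side by side. Pairs of levels are given with the vector first and NICD1 second. Differences are given as log2 of FPKM + 0.1 in A549-NICD1 minus A549-Vector, after scaling that removed the trimmed mean log2 ratio of -0.06, a scale that understates the differences of low genes. Intervals are 95% Clopper-Pearson intervals of the recovered reads and cover counting error only. With 1 library per condition no difference has a replicate check, and an effect of NICD1 and a difference between single cultures cannot be told apart. Fewer cells of a kind and less RNA per cell cannot be told apart either. Counts of genes used the 12263 genes with a mean of at least 1 FPKM, among them 37 of the 39 members. A difference of at least 0.5, which is 1.41-fold, was counted as higher or lower.

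Depths were nearly equal, at 48602848 reads for the vector and 48528434 reads for NICD1. NOTCH1 was at 5.40 FPKM with the vector and 2865 FPKM with NICD1, in the direction of the labels, and RFC4 was at 39.5 and 4075 FPKM. Both were higher in the same library, so an effect of NICD1 and one of the RFC4 level cannot be told apart. Together NOTCH1 and RFC4 made up 1.81% of all FPKM in A549-NICD1 and 0.0116% in A549-Vector. Of 13 genes listed as A549 markers, 9 were under 1 FPKM in both libraries and KRT7, FGA and FGB were listed at 0 in both, while all 6 genes listed for HEK293, a line from human embryonic kidney, reached 1 FPKM in each library. CDKN2A, one of these HEK293 genes, was at 139 FPKM with the vector and 138 FPKM with NICD1. The lowest of the 6 were PAX2, at 3.02 and 1.77 FPKM, and SOX11, at 1.68 and 2.24 FPKM. Among the A549 markers, ANXA1, CAV1 and ALDH3A1 reached 1 FPKM in each library. ANXA1 was at 11.1 and 11.4 FPKM, CAV1 at 4.52 and 1.93 FPKM, and ALDH3A1 at 1.45 and 2.01 FPKM. AKR1C1 reached 1 FPKM with the vector only, at 1.15 and 0.553 FPKM. Of 9 markers of fibroblasts, endothelium and blood, 7 were under 1 FPKM in both, and COL1A1 and COL3A1 were lower with NICD1, at a median difference of -0.82. The methods state that the lines were checked by short tandem repeat typing. What these marker levels contribute to the members' values was not tested. The levels below are those of libraries labelled A549 in which most A549 markers listed were under 1 FPKM.

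Of the 37 members compared, 2 were higher and 2 were lower in A549-NICD1 by at least 0.5, against 2.67% and 3.48% of all genes compared. The higher members were BHLHE40 and SLC2A1, and the lower ones EPAS1 and PFKFB4. At a difference of at least 1 only BHLHE40 was higher and none was lower, where the shares over all genes were 0.644% and 0.212%. BHLHE40 fell short of 1 without scaling, at 0.98, and with a pseudocount of 1 FPKM, at 0.997. The median difference over the 37 members was -0.06, and over all genes compared it was -0.005. The plot of levels by gene shows that most members had nearly the same level in both libraries.

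**Figure D1:**
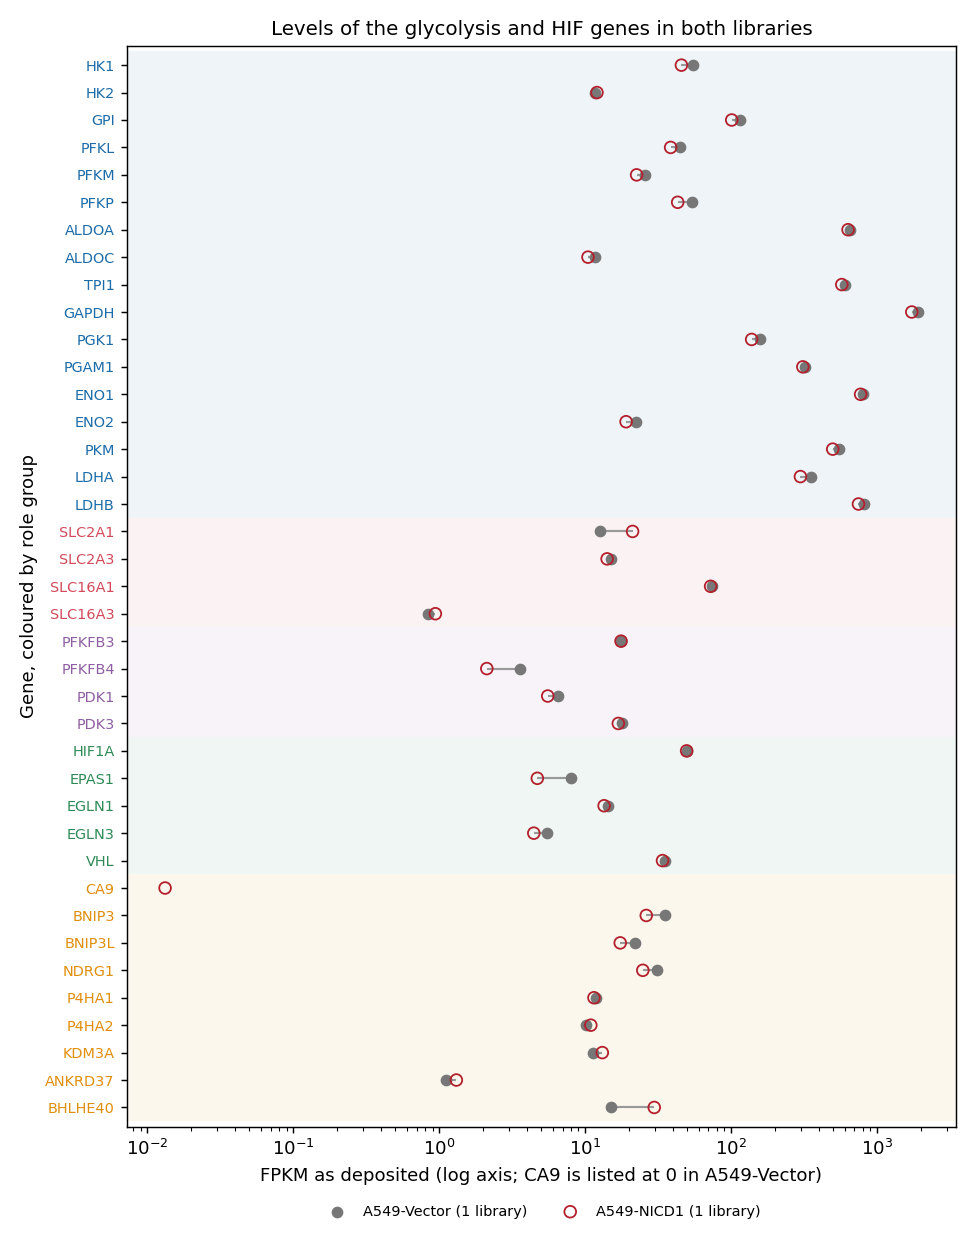
FPKM of each of the 39 genes in A549-Vector (filled circles) and A549-NICD1 (open circles), 1 library each, on a log axis, with gene names coloured by role. GAPDH is the highest in both libraries, at 1903 and 1730 FPKM. The widest gaps among genes above 1 FPKM are those of BHLHE40, EPAS1, SLC2A1 and PFKFB4.

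BHLHE40, a helix-loop-helix repressor that HIF induces and that also takes part in the circadian clock, was at 15.0 FPKM with the vector and 29.8 FPKM with NICD1. It rested on at least 2213 and 4382 reads. This was 2.06-fold higher after scaling, a log2 difference of 1.04 (interval 0.97 to 1.12), and the 75th highest difference among the 12263 genes. Its gene lies on the plus strand at chr3:4979116-4985323 in GENCODE 29 on GRCh38.

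SLC2A1 encodes GLUT1, the widespread glucose transporter that feeds glycolysis in most cultured cells. Its level was 12.6 FPKM with the vector and 21.1 FPKM with NICD1, from at least 2241 and 3764 reads. This was 1.74-fold higher after scaling, a log2 difference of 0.80 (interval 0.73 to 0.88) and the 124th highest of all genes compared. The gene lies on the minus strand at chr1:42925375-42959176.

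EPAS1, which encodes HIF-2 alpha, the second oxygen-regulated HIF subunit, was at 8.03 FPKM with the vector and 4.70 FPKM with NICD1, from at least 2015 and 1179 reads. The log2 difference was -0.70 (interval -0.82 to -0.61), the 139th lowest of all genes compared. The gene lies on the plus strand at chr2:46293667-46386703. PFKFB4, an enzyme that makes and removes the bisphosphate that activates phosphofructokinase, was at 3.58 FPKM with the vector and 2.12 FPKM with NICD1, from at least 631 and 373 reads. Its log2 difference of -0.68 (interval -0.89 to -0.51) was the 171st lowest, and its gene lies on the minus strand at chr3:48517684-48562015. With a pseudocount of 1 FPKM the PFKFB4 difference was -0.52.

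The 250 bases upstream of the start site are shown for these 4 genes, for BNIP3, which had the next largest difference among the members, and for LDHA, an enzyme gene known as a HIF target; BNIP3 and LDHA were picked after their values were seen. They are RefSeq sequences of GRCh38.p14, written 5′ to 3′ on the gene's own strand, and positions are counted from the RefSeq start site. Of the outermost gene bounds in GENCODE 29, those of BHLHE40, SLC2A1, EPAS1 and PFKFB4 enclose the stretch shown, while the stretches of BNIP3 and LDHA run past theirs. Capitals mark ACGTG and GCGTG, the core that HIF binds, on either strand; CACGTG, the E-box of helix-loop-helix proteins, holds ACGTG on both strands.
BHLHE40, chr3:4979187-4979436, plus strand: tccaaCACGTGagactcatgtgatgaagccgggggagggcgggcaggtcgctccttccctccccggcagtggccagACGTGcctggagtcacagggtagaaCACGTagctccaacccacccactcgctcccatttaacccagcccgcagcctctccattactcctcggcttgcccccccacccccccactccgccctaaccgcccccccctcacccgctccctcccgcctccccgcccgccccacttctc
SLC2A1, chr1:42958869-42959118, minus strand: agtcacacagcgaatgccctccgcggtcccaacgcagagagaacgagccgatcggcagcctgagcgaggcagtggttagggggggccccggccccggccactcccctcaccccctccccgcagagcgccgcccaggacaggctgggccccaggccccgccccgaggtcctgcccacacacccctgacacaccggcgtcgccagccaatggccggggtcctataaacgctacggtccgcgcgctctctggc
EPAS1, chr2:46297157-46297406, plus strand: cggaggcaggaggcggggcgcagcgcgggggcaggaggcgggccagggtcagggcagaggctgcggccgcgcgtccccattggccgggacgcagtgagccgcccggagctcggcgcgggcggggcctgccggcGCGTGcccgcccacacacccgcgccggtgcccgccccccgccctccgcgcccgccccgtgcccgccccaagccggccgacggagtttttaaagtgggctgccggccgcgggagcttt
PFKFB4, chr3:48556804-48557053, minus strand: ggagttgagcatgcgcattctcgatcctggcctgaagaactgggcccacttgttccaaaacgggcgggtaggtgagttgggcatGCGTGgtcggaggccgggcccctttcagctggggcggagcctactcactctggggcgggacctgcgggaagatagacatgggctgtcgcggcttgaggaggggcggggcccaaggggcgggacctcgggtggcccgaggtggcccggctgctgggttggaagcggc
BNIP3, chr10:131981924-131982173, minus strand: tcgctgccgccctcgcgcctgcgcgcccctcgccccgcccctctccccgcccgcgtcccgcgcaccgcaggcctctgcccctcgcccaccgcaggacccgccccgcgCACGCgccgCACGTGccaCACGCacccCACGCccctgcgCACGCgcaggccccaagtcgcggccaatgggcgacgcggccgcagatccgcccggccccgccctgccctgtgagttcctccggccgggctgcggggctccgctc
LDHA, chr11:18394313-18394562, plus strand: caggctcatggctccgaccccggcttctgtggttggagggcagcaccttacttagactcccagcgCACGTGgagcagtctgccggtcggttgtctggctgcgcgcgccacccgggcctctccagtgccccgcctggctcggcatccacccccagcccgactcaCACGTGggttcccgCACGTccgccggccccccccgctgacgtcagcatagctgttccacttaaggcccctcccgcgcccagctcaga

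The printed stretches of BHLHE40, BNIP3 and LDHA each hold CACGTG and further copies of the HIF core, which in BNIP3 are copies of CACGC, the reverse complement of GCGTG, close together. Those of EPAS1 and PFKFB4 each hold GCGTG, and in SLC2A1 GCGTG lies 25 bases downstream of the start site, outside the stretch shown. Genes with the HIF core near their start site were thus found among the higher and among the lower members. Over windows of 300 bases around the start site, 25 of the 34 members with a RefSeq promoter held a HIF core (73.5%). The share was 64.2% of 9656 promoters of the genes compared and 48.4% of all 27303 promoters. BNIP3 and LDHA, both shown above, held the most of the 34 members, at 6 matches each over both strands. HK1, PFKM, PFKP, TPI1, PGAM1, SLC16A3, PDK1, EGLN3 and P4HA2 held 0. TGGGAA, the core that RBPJ binds, was found on either strand in the windows of BNIP3 and EGLN3, which are 2 of the 34 members (5.88%), against 21.6% of the promoters of the genes compared and 24.3% of all promoters. None of the 4 members that differed by at least 0.5 held TGGGAA in this window, and no match says only that these letters are not in it. A match of letters is a description of the sequence and does not show binding.

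Most glycolytic enzymes had a difference slightly below 0. Of the 17 enzymes and lactate dehydrogenases, 14 had a difference below 0, against 51.0% of all genes compared. Without scaling 16 were below 0, against 63.3% of all genes, with equal sums of FPKM 16, against 55.9%, and with scaling to the median gene 13, against 49.996%. Their median difference was -0.11 and they ranged from -0.26 for PFKP to 0.09 for HK2, so none reached 0.5. The counting interval lay wholly below 0 for 12 of them and wholly above 0 for 1, against 29.5% and 28.6% of all genes compared. The summed FPKM of the 17 genes was 6496 in A549-Vector and 5990 in A549-NICD1, which is 1.68% and 1.56% of all FPKM.

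The first enzymes trap glucose in the cell and commit it to the pathway. HK1, the hexokinase found in most tissues, was at 54.6 FPKM with the vector and 45.7 FPKM with NICD1, with a difference of -0.20 (interval -0.25 to -0.16). HK2, the inducible hexokinase and a HIF target, was at 11.7 and 12.1 FPKM, with a difference of 0.09 (interval 0.03 to 0.16). GPI, the isomerase that follows, was at 114 and 101 FPKM. These values place HK2 on the other side of 0 from HK1 and GPI.

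All 3 phosphofructokinase subunits, which carry out the committed step, had differences below 0 and short of 0.5 in size. PFKP, the platelet form, was at 53.6 FPKM with the vector and 43.1 FPKM with NICD1, a difference of -0.26 (interval -0.31 to -0.21). PFKL, the liver form, was at 44.8 and 38.5 FPKM, a difference of -0.16. PFKM, the muscle form, was at 25.6 and 22.5 FPKM, a difference of -0.13. The order PFKP, PFKL, PFKM was the same in both libraries.

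The trunk enzymes that follow were among the most abundant transcripts and were nearly level. GAPDH ranked 4 by FPKM in A549-Vector and 7 in A549-NICD1, with a difference of -0.08 (interval -0.09 to -0.07). ENO1, the main enolase, was at 801 and 771 FPKM, and ALDOA, the main aldolase, at 657 and 633 FPKM. Their differences after scaling were 0.001 and 0.003, and both were -0.05 or lower without scaling.

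TPI1, which interconverts the triose phosphates, was at 605 and 573 FPKM, and PGAM1, a phosphoglycerate mutase, at 323 and 310 FPKM. Their intervals were -0.04 to -0.002 and -0.04 to 0.04. PGK1, the first ATP-forming enzyme of the pathway, was at 157 and 138 FPKM, a difference of -0.13 (interval -0.16 to -0.10). PKM, the pyruvate kinase of most tissues, was at 549.3 and 497 FPKM, a difference of -0.09. The intervals of PGK1 and PKM thus lay wholly below 0.

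The less abundant aldolase and enolase had differences below 0. ALDOC, an aldolase of brain and a HIF target, was at 11.8 and 10.5 FPKM, a difference of -0.11 with an interval of -0.25 to 0.02 that included 0. ENO2, the enolase best known from neurons, was at 22.5 and 19.1 FPKM, a difference of -0.18 (interval -0.26 to -0.10). Over the 10 enzymes with a mean of at least 100 FPKM, 8 were below 0 with a median of -0.07, while 233 of all 592 genes at that level were below 0 with a median of 0.03.

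LDHA, the lactate dehydrogenase subunit that HIF induces and that favours lactate formation, was at 352 FPKM with the vector and 299 FPKM with NICD1, a difference of -0.18 (interval -0.20 to -0.16). LDHB, the subunit of oxidative tissues, was at 809 and 746 FPKM, a difference of -0.06 (interval -0.08 to -0.04). LDHB was thus the more abundant subunit in both libraries, and LDHA made up 30.3% of their summed FPKM in A549-Vector and 28.6% in A549-NICD1, with intervals that did not overlap.

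**Figure D2:**
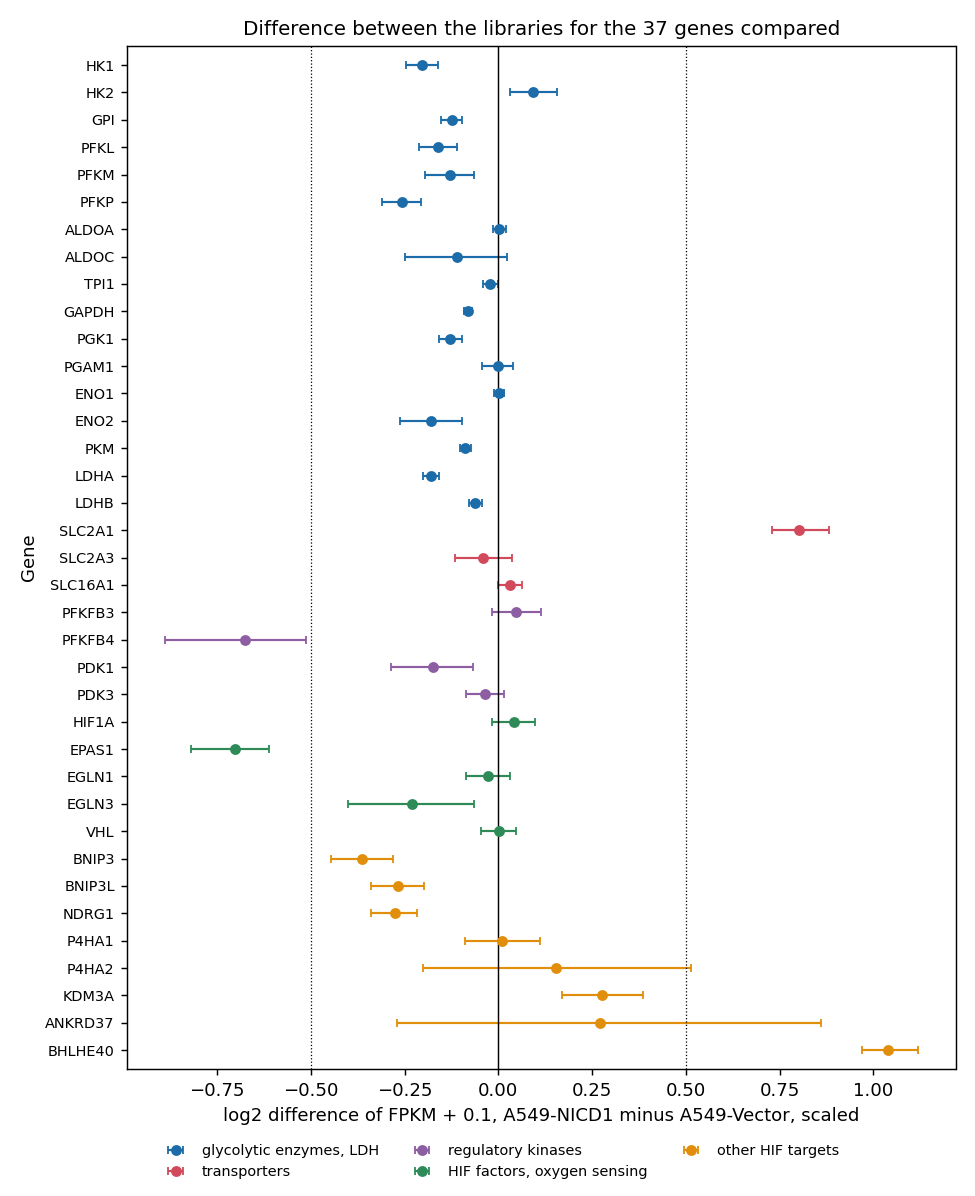
Scaled log2 difference (A549-NICD1 minus A549-Vector) of the 37 genes with a mean of at least 1 FPKM, by role, with 95% counting intervals and dotted lines at differences of 0.5. Most enzymes lie between -0.26 and 0; ALDOA and ENO1, just above 0 here, are below 0 without scaling, and BHLHE40, SLC2A1, EPAS1 and PFKFB4 lie beyond the dotted lines.

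Among the transporters, SLC2A1 alone differed by at least 0.5. SLC2A3, which encodes the high-affinity neuronal glucose transporter GLUT3, was at 15.1 FPKM with the vector and 14.1 FPKM with NICD1, a difference of -0.04 (interval -0.12 to 0.04). The order of these transporters was therefore reversed between the libraries, since SLC2A1 made up 45.4% of their summed FPKM in A549-Vector (interval 44.0 to 46.8) and 59.9% in A549-NICD1 (interval 58.7 to 61.1). Such shares do not depend on the scaling.

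SLC16A1, the lactate transporter MCT1, was at 73.6 and 72.4 FPKM, with a difference of 0.03 that was -0.02 without scaling. SLC16A3, the transporter MCT4 that HIF induces for lactate export, was at 0.840 and 0.942 FPKM and so below the filter, with at least 84 and 94 reads. SLC16A1 carried 98.9% of their summed FPKM in A549-Vector and 98.7% in A549-NICD1.

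The 4 regulatory kinases differed among themselves, with a median of -0.11. PFKFB3, the form with the strongest kinase activity and also a HIF target, was at 17.7 FPKM with the vector and 17.6 FPKM with NICD1, and PFKFB4 made up 16.8% of their summed FPKM (interval 15.6 to 18.0) with the vector and 10.7% (interval 9.74 to 11.8) with NICD1. PDK1, a HIF target that holds pyruvate back from the mitochondrion by inhibiting pyruvate dehydrogenase, was at 6.52 and 5.54 FPKM, a difference of -0.17 (interval -0.29 to -0.07). PDK3, a related kinase, was at 18.0 and 16.9 FPKM, a difference of -0.04 (interval -0.09 to 0.01). PDK3 was the more abundant of the pair in both libraries.

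In the oxygen-sensing system EPAS1 alone passed 0.5, and the median of the 5 genes was -0.03, or -0.08 without scaling. HIF1A was at 50.1 FPKM with the vector and 49.6 FPKM with NICD1, a difference of 0.04 (interval -0.02 to 0.10). HIF1A made up 86.2% of the summed FPKM of HIF1A and EPAS1 in A549-Vector (interval 85.6 to 86.8) and 91.3% in A549-NICD1 (interval 90.8 to 91.8). HIF protein is set largely by its breakdown, which these values do not measure.

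EGLN1, the main prolyl hydroxylase that marks HIF alpha for breakdown, was at 14.3 and 13.5 FPKM, and VHL, which recognises the hydroxylated protein, was at 35.2 and 33.9 FPKM. Their intervals both included 0. EGLN3, a hydroxylase that HIF itself induces, was at 5.44 and 4.45 FPKM, a difference of -0.23 (interval -0.40 to -0.07).

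The other HIF targets lay on both sides of 0, with a median of 0.08 and 3 of the 8 compared below it, to which P4HA1 is added without scaling or with equal sums of FPKM. BNIP3, a mitochondrial protein that promotes mitophagy, was at 35.1 FPKM with the vector and 26.2 FPKM with NICD1, a difference of -0.36 (interval -0.45 to -0.28). Its relative BNIP3L was at 21.8 and 17.4 FPKM, a difference of -0.27 (interval -0.34 to -0.20). NDRG1, a stress and hypoxia-induced gene, was at 31.3 and 24.8 FPKM, a difference of -0.28 (interval -0.34 to -0.22). These were the 3 targets below 0, and their intervals overlapped one another.

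Above 0, besides BHLHE40, KDM3A, a histone demethylase, was at 11.2 FPKM with the vector and 13.1 FPKM with NICD1, a difference of 0.28 (interval 0.17 to 0.39). ANKRD37 was at 1.11 and 1.31 FPKM with an interval of -0.27 to 0.86. The collagen prolyl hydroxylases, which HIF also induces, were nearly level. P4HA1 was at 11.9 and 11.5 FPKM and P4HA2 at 10.2 and 10.9 FPKM, with intervals of -0.09 to 0.11 and -0.20 to 0.51. The reads of P4HA2 rest on the smallest possible gene length of 260 bases, which makes its interval wide.

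CA9, the carbonic anhydrase often used as a marker of HIF activity, was listed at 0 in A549-Vector and at 0.0132 FPKM in A549-NICD1, where it rests on as few as 1 read. Both libraries lay under a floor of 3 reads, so no fold is given.

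**Figure D3:**
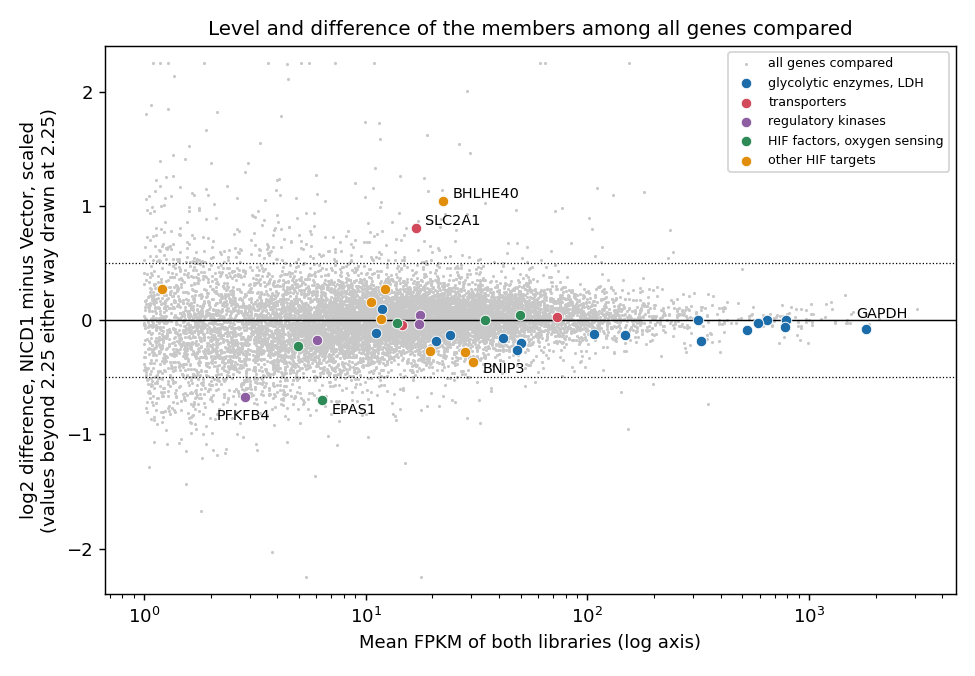
Scaled log2 difference (A549-NICD1 minus A549-Vector) against mean FPKM of both libraries on a log axis for the 12263 genes compared (grey), with the members coloured by role and dotted lines at differences of 0.5. Of the 17 enzymes, 10 lie at 100 FPKM or more, where most genes differ little, and 4 members lie beyond the dotted lines.

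All shares were taken over the member genes of a step only. Left out were PDK2, at 25.8 FPKM with the vector and 22.4 FPKM with NICD1, and EGLN2, at 36.1 and 33.7 FPKM. Each of these was above the member genes of its step in both libraries. PFKFB2, also left out, was at 4.48 and 4.73 FPKM, above PFKFB4 and below PFKFB3. Other glucose transporters were left out as well, so the shares of SLC2A1 and SLC2A3 are not shares of all glucose transporters. SLC2A8 was at 14.1 and 14.4 FPKM, above SLC2A1 with the vector and above SLC2A3 with NICD1. SLC2A6 was at 9.56 and 11.2 FPKM. HK1 made up 82.3% of the sum with HK2 in A549-Vector (interval 81.8 to 82.8) and 79.1% in A549-NICD1 (interval 78.5 to 79.7), with intervals that did not overlap. ENO1 carried 97.3% and 97.6% of the sum with ENO2, and ALDOA 98.2% and 98.4% of the sum with ALDOC. BNIP3 made up 61.7% and 60.1% of the sum with BNIP3L, with intervals that overlapped. Among the steps compared, the shares of SLC2A1 and SLC2A3 differed most between the libraries.

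**Figure D4:**
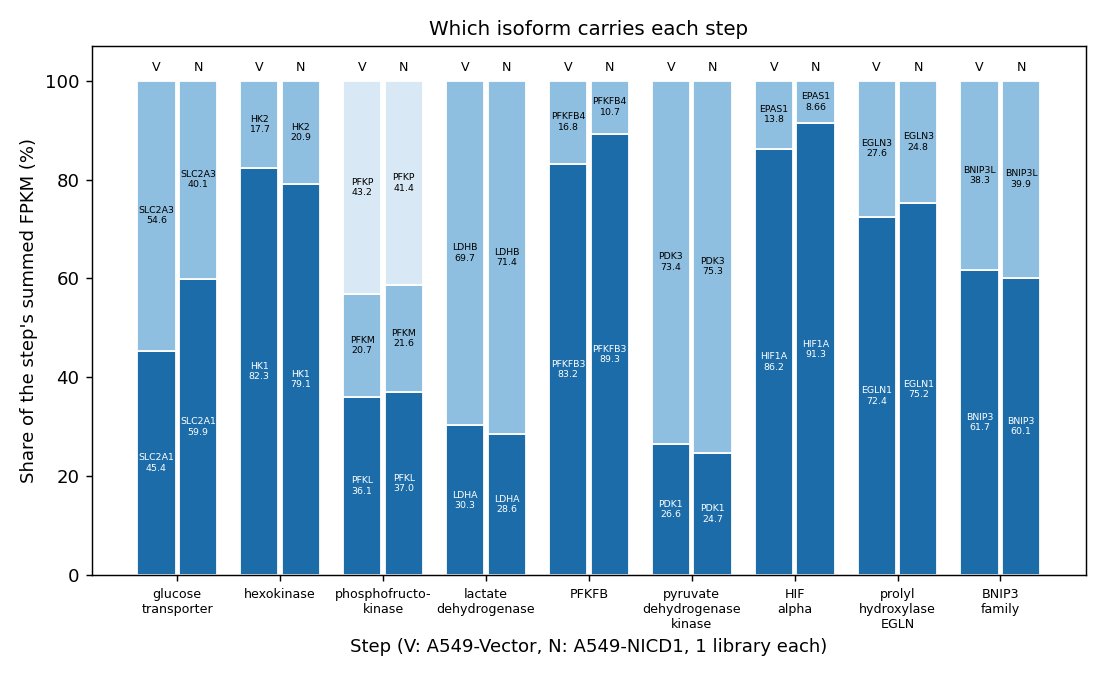
Share of the summed FPKM of each step, in percent, carried by each isoform in A549-Vector (V) and A549-NICD1 (N), 1 library each. SLC2A1 is at 45.4% (V) and 59.9% (N) of the glucose transporters compared, HIF1A at 86.2% and 91.3% of the HIF alpha pair, and PFKFB3 at 83.2% and 89.3% of the PFKFB pair.

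Most further genes of these pathways also differed little. Of 40 other glycolysis and pyruvate genes, 26 passed the filter, with a median of -0.03. None was higher and 3 were lower by at least 0.5, against 2.67% and 3.48% of all genes compared. These were SLC2A12, at 4.70 FPKM with the vector and 2.50 FPKM with NICD1, SLC2A4, the insulin-regulated glucose transporter, at 2.58 and 1.48 FPKM, and ENO3, the muscle enolase, at 3.67 and 2.34 FPKM. The lower genes here were minor forms, each under 5 FPKM.

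Of 16 other HIF pathway components, 15 passed the filter with a median of -0.02. None was higher and 2 were lower, against 2.67% and 3.48% of all genes compared. HIF3A, a HIF alpha subunit that can oppose the others, was at 2.20 FPKM with the vector and 1.19 FPKM with NICD1, a difference of -0.78 (interval -1.21 to -0.46). CITED2, which competes with HIF for the coactivators CREBBP and EP300, was at 38.3 and 25.2 FPKM, a difference of -0.54 (interval -0.62 to -0.47). EPAS1 and HIF3A were thus both lower, while the interval of HIF1A included 0.

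Of 31 other HIF targets, 30 were in the files and 26 passed the filter, with a median of -0.04. Of these, 1 was higher and 2 were lower, against 2.67% and 3.48% of all genes compared. ADM, the vasodilator peptide adrenomedullin, was at 3.57 and 5.62 FPKM, a difference of 0.70 (interval 0.40 to 1.03). RORA, a nuclear receptor, was at 3.14 and 1.93 FPKM, and HILPDA, a lipid droplet protein, at 10.4 and 6.90 FPKM. These targets too lay on both sides of 0.

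Genes of the ATF4 and unfolded protein response, whose higher levels were already known from earlier results of these data, stood beside these values with a median of 0.71. Of these 10 genes, 9 were above 0, against 6007 of the 12263 genes compared. By at least 0.5, 5 were higher, against 2.67% of all genes compared. They were ATF3 at 2.01, HERPUD1 at 1.46, CHAC1 at 1.30, HSPA5 at 1.12 and DDIT3 at 1.05. HSPA5, the main chaperone of the endoplasmic reticulum, was at 116 FPKM with the vector and 243 FPKM with NICD1. The part of this stress response in the differences of the members was not tested.

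For 6 members more than 5% of the 100-base windows of the longest transcript also occurred in another annotated gene, which can take reads from them. These were LDHB at 51.7%, ALDOA at 46.9% and PGAM1 at 40.0%, with GPI at 8.24%, TPI1 at 5.88% and SLC2A3 at 5.75%. BHLHE40, EPAS1 and PFKFB4 shared no window (0%), and SLC2A1 shared 1.39%. The levels of the 6 members, and the isoform shares that rest on them, are uncertain to that extent. Exons on the opposite strand overlap 38.5% of CA9 and 35.2% of ANKRD37, and reads of such pairs may not be separated.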

How the data were processed

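The authors deposited 1 FPKM value per gene for each of 2 libraries (A549-NICD1 and A549-Vector, grouped by genotype label), that is, reads divided by gene length and depth. The unit was read from the values. The submitters' processing notes name Bowtie2, HTSeq and hg38 without roles; versions and annotation are not given in the sources used here. The library kit named in the labels is not said to keep strand, while the study calls its sequencing strand-specific. A total of 27 rows named by date numbers were left out. Depths were recovered from the deposited values: 179 low genes with equal reads gave their ratio, and whole gene lengths gave their size. Values of 17176 of 17178 genes above 0 were then whole reads, within 1e-05 plus 4e-09 per read, at the smallest possible length. Reads are therefore lower limits and intervals are at their widest.

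Python 3.11.15, numpy 2.4.6, pandas 2.3.3, scipy 1.17.1 and matplotlib 3.10.9 were used. Differences are log2 of FPKM + 0.1, scaled by an unweighted trimmed mean of log ratios (30% of ratios and 5% of levels trimmed at each end), for genes with a mean of at least 1 FPKM. No test was run, since each condition had 1 library. The steps were tested on simulated data. Members and lists, markers included, were chosen with earlier results of these data known. All members are named, with NOTCH1 and RFC4, and of each context list the genes beyond 0.5, at most 8. CDKN2A, COL1A1, COL3A1 and the other markers named, with PDK2, EGLN2, PFKFB2, SLC2A6 and SLC2A8, were named after their values were seen. The promoter table held 34 members, without SLC2A3, SLC16A1, VHL, BNIP3L and NDRG1. Promoters are RefSeq (GRCh38.p14) and gene positions GENCODE 29 (GRCh38). Pseudocount, scaling, filter, threshold and recovered reads in place of FPKM were varied.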

Additional observations from a re-analysis of the deposited data

How the results depend on the processing

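No paired analysis was possible because there was only 1 library of each kind. SLC2A1 stayed between 0.75 and 0.81, BHLHE40 between 0.98 and 1.04, EPAS1 between -0.76 and -0.62 and PFKFB4 between -0.73 and -0.52 over all settings run. With a filter at 10 FPKM in place of 1, which leaves out EPAS1 and PFKFB4, 2 members were higher and 0 were lower. The shares of all genes called higher and lower at that filter were 1.38% and 0.716%, against 2.67% and 3.48%. The median of the regulatory kinases was then 0.0058 against -0.11. With a threshold of 1 in place of 0.5 and the other settings kept, 1 member was higher and 0 were lower, against 0.644% and 0.212% of all genes. That member, BHLHE40, was under 1 without scaling and with a pseudocount of 1 FPKM. The median of the transporters was 0.03, against -0.025 without scaling and 0.12 with a filter at 0.1 FPKM or none, which lets SLC16A3 in. The median of the enzymes was -0.11, and -0.17 without scaling. Leaving out the scaling moved the median of all genes from -0.005 to -0.06 and changed the sign of 7 members near 0, namely ALDOA, ENO1, SLC16A1, PFKFB3, HIF1A, VHL and P4HA1. Equal sums of FPKM without NOTCH1 and RFC4 changed the sign of 4 of these (ALDOA, ENO1, VHL and P4HA1), and scaling to the median gene that of PGAM1. The enzymes below 0 numbered 13 to 16 of 17, while the share of all genes below 0 under the scalings ran from 49.996% to 63.3%. A pseudocount of 1 FPKM lowered the shares of all genes called higher and lower from 2.67% and 3.48% to 1.74% and 1.55%, while filters at 0.1 FPKM or none raised them to at most 7.07% and 5.80%. Depth limits CA9 and ANKRD37, which rest on few reads.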
